A study of Mus musculus with 36 samples.

Results

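The 34 genes described here encode proteins of neurons and were followed in single microglia, the resident macrophages of the brain, that had been sorted from mouse brain. They were chosen from earlier results of the same data because their counts differed between brain regions and occurred together in single cells, so both patterns are given below as descriptions, and nothing is read from a test of them. All 34 were found among the 26348 gene identifiers of the files, and all 34 were among the 14892 genes tested. By role they fall into synaptic vesicle and release (6 genes), cytoskeleton, axon and transport (11), membrane, channel and adhesion (7), calcium and kinase signalling (6), and RNA-binding, nuclear and protein turnover (4).

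The mice were males of 6 months. APP mice carry the APPswe and PSEN1dE9 transgenes, which in this line are driven by the prion protein promoter and lead to amyloid deposits, and WT mice were the controls. Sorted cells had high CD11b and intermediate CD45 and were split by CD11c, an integrin of microglia that gather at amyloid plaques. The groups were CD11c-positive APP hippocampus (362 cells in 3 replicates), CD11c-negative APP hippocampus (426 cells in 4), CD11c-negative WT hippocampus (438 cells in 4), CD11c-positive APP cortex (587 cells in 4), CD11c-negative APP cortex (454 cells in 4) and CD11c-negative WT cortex (390 cells in 4). A replicate is the sum of the cells that the titles give to 1 animal name, region and gate. The CD11c-positive APP hippocampal replicates are named 1-2, 2-3 and 4, so the first 2 may be pools that share an animal, and these 3 replicates may not be independent.

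The 36 libraries held 69 to 80 cells and 956491 to 2340598 counts each. Itgax, which encodes CD11c, lay at 63.9 to 83.6 CPM (counts scaled to a total of 1e6) in the CD11c-positive and 0 to 31.7 CPM in the CD11c-negative APP hippocampal replicates, and at 84.3 to 193 CPM in the CD11c-positive and 0 to 4.05 CPM in the CD11c-negative APP cortical replicates. All 14 microglial markers were detected in every group. For 17 of the 36 libraries the genotype tag and the title name different genotypes, and titles were used throughout. App, the gene of the transgene's protein, did not separate the genotypes, at 124 ± 139 CPM in CD11c-negative APP and 141 ± 73.3 CPM in WT cortex, and at 88.3 ± 18.2 CPM in CD11c-negative APP and 46.6 ± 62.2 CPM in WT hippocampus (SD, n = 4 each). The first number in the titles differs between regions, between genotypes within a region and between the gates in hippocampus, so each of these contrasts cannot be told apart from library set. Both gates of a cortical animal share that number. Libraries reuse 1 set of barcodes: of 83 distinct cell barcodes, 1 occurred in a single library and the median barcode in 35.

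Neurons release transmitter from synaptic vesicles, which SNARE proteins and their regulators fuse with the membrane, and they hold long axons and dendrites in shape with tubulin, microtubule-associated proteins and neurofilaments. Transcripts of such genes mark neurons among brain cells, and many of the genes are kept silent in other cell types by the repressor REST, which binds a DNA element called RE1. Microglia contact synapses and take up debris and synaptic material.

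RefSeq promoter windows (GRCm38.p6, 250 bases before to 50 after a gene start) were matched by symbol for 22 of the 34 members. Those of Kif1a, Map1b and Syn1 are shown because each holds the left part of the RE1 element, CAGCACC, which is printed in capitals on either strand (GGTGCTG is its reverse complement). A further Kif1a window, at chr1:93082431-93082730, also holds GGTGCTG and is not shown. The Kif1a window shown lies at chr1:93101825-93102124, the Map1b window at chr13:99516553-99516852 and the Syn1 window at chrX:20920869-20921168. All 3 are on the minus strand and written 5′ to 3′ on that strand.
Kif1a: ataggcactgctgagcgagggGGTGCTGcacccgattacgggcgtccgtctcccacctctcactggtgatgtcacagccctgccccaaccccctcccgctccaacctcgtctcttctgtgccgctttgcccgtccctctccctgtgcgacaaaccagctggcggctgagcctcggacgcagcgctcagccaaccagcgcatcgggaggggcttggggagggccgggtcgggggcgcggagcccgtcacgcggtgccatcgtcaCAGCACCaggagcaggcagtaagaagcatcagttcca
Map1b: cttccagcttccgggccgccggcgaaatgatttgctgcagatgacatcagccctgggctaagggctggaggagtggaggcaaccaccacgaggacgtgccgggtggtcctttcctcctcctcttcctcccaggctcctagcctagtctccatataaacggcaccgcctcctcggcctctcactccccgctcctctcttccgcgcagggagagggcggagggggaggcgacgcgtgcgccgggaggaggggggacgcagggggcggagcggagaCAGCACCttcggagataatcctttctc
Syn1: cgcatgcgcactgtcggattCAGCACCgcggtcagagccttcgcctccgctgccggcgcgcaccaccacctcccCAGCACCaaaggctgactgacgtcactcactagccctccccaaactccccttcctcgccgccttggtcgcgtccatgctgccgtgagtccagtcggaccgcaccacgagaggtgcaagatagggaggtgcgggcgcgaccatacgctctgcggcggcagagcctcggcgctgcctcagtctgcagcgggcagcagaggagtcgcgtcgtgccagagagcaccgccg
The left part was found in 4 of the 22 matched members (also in Tubb3), and in 8.14% of the 27025 genes with a window. The right part, GGACAG, was found in 8 of the 22 members and in 24.7% of all genes. Both parts on the same strand with 2 bases of any kind between them were found in 0 of the 22 members and in 0.0407% of all genes. The cyclic AMP response element TGACGTCA occurred in 1 member, Syn1, and in 2.03% of all genes, and the TATA box TATAAA in 3 members and in 15.7% of all genes. GAGGAAGT, a core sequence bound by the myeloid factor PU.1, occurred in 0 members and in 3.69% of all genes. These 6 motifs were searched on both strands, and the left and right parts lie within the joined element. A letter match in a window is a description, not a binding site. Ank3, Camk2a, Camk2n1, Celf4, Gap43, Ncam1, Nefl, Nefm, Ptprd, Snap25, Stmn2 and Thy1 had no entry.

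Hippocampal microglia carried few counts of the neuronal genes and cortical microglia many. The 34 genes summed to 62.7, 84.8 and 131 CPM in the 3 CD11c-positive APP hippocampal replicates, against 2723, 3750, 5407 and 6686 CPM in the CD11c-positive APP cortical replicates. In the APP CD11c-negative gate the sums were 177, 429, 231 and 175 CPM in hippocampus, against 1741, 1036, 2636 and 4315 CPM in cortex. In WT cells they were 167, 226, 228 and 115 CPM in hippocampus, against 1271, 5725, 1910 and 3936 CPM in cortex. Every hippocampal replicate lay below every cortical replicate of the same genotype and gate, an order that the choice of the genes fixed. Genes per cell at 5000 counts and mitochondrial share were lower in WT hippocampus (390 to 468 genes and 0.601% to 0.728%) than in WT cortex (514 to 658 genes and 0.878% to 1.52%), without overlap. In APP mice both ranges overlapped between regions in both gates. Microglial markers summed to 22677 ± 958, 31511 ± 1723 and 23930 ± 1639 CPM in CD11c-positive APP, CD11c-negative APP and WT hippocampus, and to 16549 ± 952, 21264 ± 1285 and 20932 ± 3115 CPM in the matching cortical groups (SD). The part of these values in the region difference was not tested. In summed samples, fewer cells of a type and less RNA per cell cannot be told apart.

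**Figure D1:**
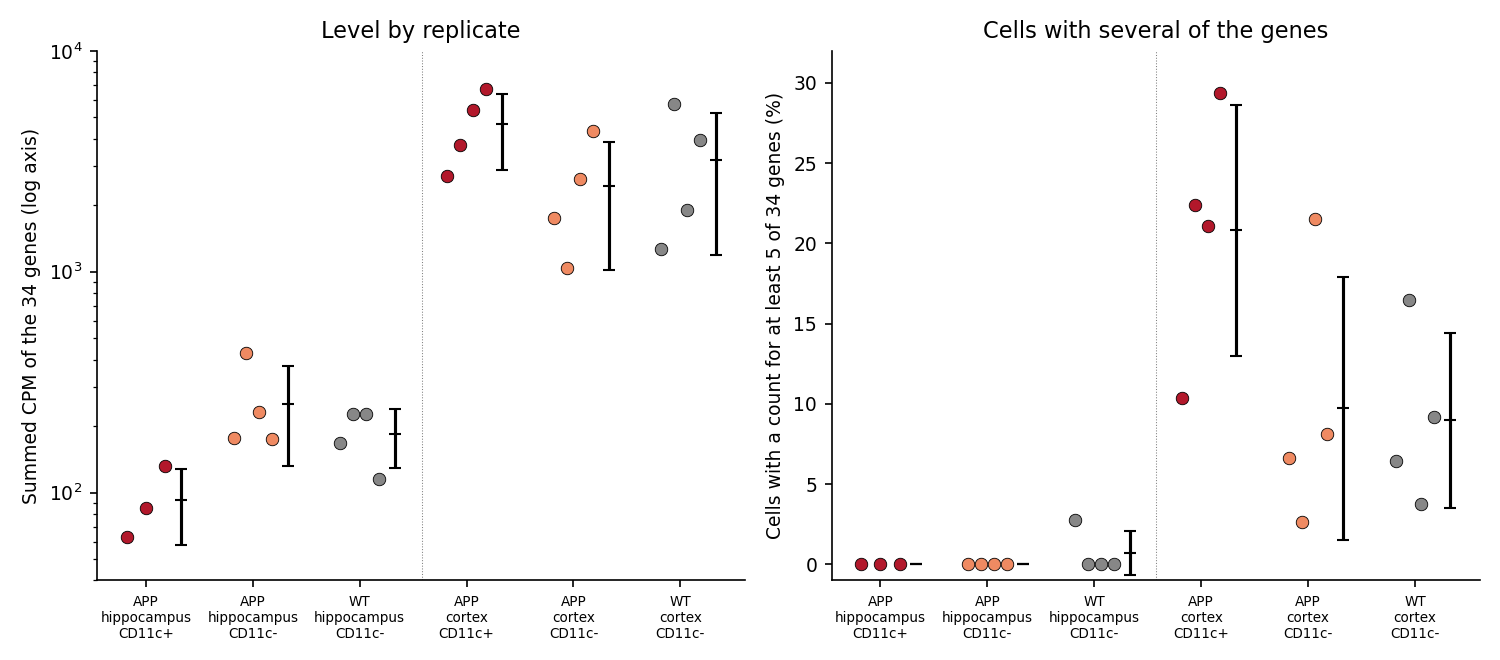
The left panel plots the summed CPM of the 34 genes (log axis) and the right panel the percentage of cells with a count for at least 5 of them, with 1 point per replicate and the mean ± SD beside the points, hippocampus left of cortex. Hippocampal sums lie between 62.7 and 429 CPM and cortical sums between 1036 and 6686 CPM, and of the hippocampal replicates only WT replicate 1, at 2.76%, has cells with at least 5 of the genes.

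On group sums, 16 of the 34 genes had 0 counts in CD11c-positive APP hippocampus, 19 in CD11c-negative APP hippocampus and 7 in WT hippocampus, while all 34 had counts in each cortical group. The median log2 ratio of hippocampus over cortex, with genes at 0 set to a floor of 3 counts over the group, was -6.73 in CD11c-positive APP, -6.86 in CD11c-negative APP and -6.43 in WT cells. Over all genes tested the same medians were -0.07, 0.17 and -0.29. In the fit across all genes (edgeR quasi-likelihood test, Benjamini-Hochberg adjusted p under 0.05), 11 members were called lower in CD11c-positive APP hippocampus, where 0.222% of all genes tested were called lower. In CD11c-negative APP hippocampus 25 members were called lower, beside 2.14% of all genes, and in WT hippocampus 17 members, beside 1.4% of all genes. All 34 log2 fold changes were below 0 in all 3 contrasts. These calls use the contrast by which the genes were chosen, and nothing is read from them. By the titles alone, both regions of the CD11c-negative cells came from the same animals. With the animal as a block in a fit of those 2 groups 0 of 24 members tested in APP and 0 of 23 in WT cells were called, as were 0 of all genes in both. The WT count was 6 when genes per cell entered the fit, beside 17 of 14892 genes. The CD11c-positive count was 3, 4 and 5 without hippocampal replicates 1-2, 2-3 and 4, beside 8, 7 and 11 of all genes. It was 7 without cortical replicate 3 or 4, beside 21 and 20 of all genes.

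Among the synaptic vesicle genes, Cplx2 (chr13:54371349-54383917, plus strand) encodes a complexin, which clamps and then promotes SNARE-driven fusion. It had 13.7, 0 and 20.2 CPM in CD11c-positive APP hippocampus, 6.10, 0, 0.758 and 0 CPM in CD11c-negative APP hippocampus and 14.3, 121, 29.8 and 0 CPM in WT hippocampus. Its cortical values were 248, 402, 464 and 889 CPM in CD11c-positive APP, 179, 79.5, 255 and 398 CPM in CD11c-negative APP and 137, 537, 130 and 211 CPM in WT cells. The regions did not overlap in any of the 3 pairs of groups, and WT hippocampal replicate 2 came nearest to the cortical values. Snap25 (chr2:136713453-136782428, plus strand) encodes a SNARE protein of the presynaptic membrane. It had 0, 0 and 3.36 CPM in CD11c-positive APP hippocampus, 0 CPM in all 4 CD11c-negative APP hippocampal replicates and 1.12, 0, 59.5 and 0 CPM in WT hippocampus. Cortical replicates had 92.5, 254, 175 and 224 CPM in CD11c-positive APP, 53.4, 74.2, 140 and 231 CPM in CD11c-negative APP and 55.4, 274, 72.1 and 156 CPM in WT cells. A single cell held 127 of the 134 Snap25 counts of WT hippocampus, and its replicate overlapped the lowest WT cortical value. The calcium sensor of release, Syt1, had 0, 1 and 2 counts in all of CD11c-positive APP, CD11c-negative APP and WT hippocampus, against 1795, 570 and 761 counts in the matching cortical groups. The vesicle GTPase Rab3c had 0, 0 and 1 counts in those hippocampal groups, and averaged 71.6 ± 46.4, 20.6 ± 5.66 and 42.6 ± 14.7 CPM in the matching cortical ones (SD, n = 4 each). Syn1, which tethers vesicles to the cytoskeleton, had 28, 0 and 1 counts in the hippocampal groups, and the vesicle membrane protein gene Syp had 0, 1 and 16.

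Among the genes of the cytoskeleton and axon, Map1b (chr13:99421446-99516540, minus strand) and Map2 (chr1:66175273-66442583, plus strand) encode microtubule-associated proteins, Map2 mainly of dendrites. Map1b had 11.8, 0 and 0 CPM in CD11c-positive APP hippocampus, 17.8, 0.660, 0.758 and 0 CPM in CD11c-negative APP hippocampus and 7.30, 0, 0.458 and 0 CPM in WT hippocampus. In cortex it had 393, 320, 555 and 718 CPM in CD11c-positive APP, 146, 38.9, 171 and 344 CPM in CD11c-negative APP and 140, 542, 47.4 and 234 CPM in WT cells. In each hippocampal group the first replicate held most of the Map1b counts, and none reached a cortical value. Map2 had 0, 0 and 26.2 CPM in CD11c-positive APP hippocampus, 0, 0, 0.505 and 0 CPM in CD11c-negative APP hippocampus and 8.43, 29.5, 0 and 0 CPM in WT hippocampus. Its cortical values were 251, 274, 426 and 720 CPM in CD11c-positive APP, 87.6, 63.2, 181 and 248 CPM in CD11c-negative APP and 83.6, 381, 98.0 and 213 CPM in WT cells. Its 2 counts in CD11c-negative APP hippocampus, against 1192 in cortex, gave a ratio of 511-fold lower, with an exact 95% interval from 141-fold to 4228-fold that covers counting error only and treats counts as independent molecules.

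Kif1a (chr1:93015464-93101951, minus strand) encodes the kinesin that carries synaptic vesicle precursors down the axon. It had 0, 0 and 12.1 CPM in CD11c-positive APP hippocampus, from 18 counts in 1 cell, and 0 CPM in all CD11c-negative APP and WT hippocampal replicates. Cortical replicates had 129, 139, 344 and 256 CPM in CD11c-positive APP, 63.4, 2.15, 123 and 243 CPM in CD11c-negative APP and 14.2, 306, 69.4 and 208 CPM in WT cells. Against the floor of 3 counts it was at least 207-fold lower in CD11c-negative APP hippocampus and at least 441-fold lower in WT hippocampus than in the matching cortex, and the cortical replicates themselves spread widely. The growth cone gene Gap43 had 0, 0 and 52 counts in the CD11c-positive APP, CD11c-negative APP and WT hippocampal groups, against 1434, 442 and 355 counts in cortex. The neurofilament genes Nefl and Nefm, the stathmin genes Stmn2 and Stmn3, the neuronal tubulin gene Tubb3 and Nrsn1 each had at most 3 counts in any hippocampal group. Dclk1, a microtubule-binding kinase, had 38, 1 and 2 counts there. Of the 34 members 15 overlap another counted gene, and the sources used here do not say whether counting used the strand, so their counts are uncertain. Nefl and Nefm overlap each other, Syn1 overlaps Araf, Arhgap44 overlaps Elac2, and Uchl1 overlaps Uchl1os, all on opposite strands. Snap25, Syt1, Arpp21, Ptprd, Ncam1, Map1b, Map2, Dclk1, Syp and Rbfox3 overlap genes with Gm or Rik symbols.

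Among the membrane genes, Golga7b (chr19:42247574-42270348, plus strand) encodes a partner of protein palmitoyltransferases. It had 0 CPM in all 3 CD11c-positive APP hippocampal replicates, 0.265, 0, 0.253 and 0 CPM in CD11c-negative APP hippocampus and 3.93, 0, 0 and 0 CPM in WT hippocampus. In cortex it had 150, 182, 224 and 438 CPM in CD11c-positive APP, 27.0, 51.5, 109 and 219 CPM in CD11c-negative APP and 35.4, 277, 0.784 and 120 CPM in WT cells. WT cortical replicate 3 lay below WT hippocampal replicate 1, so the WT regions overlapped. Ank3, the ankyrin that organises the axon initial segment, had 0, 1 and 3 counts in the hippocampal groups, and the sodium channel gene Scn2a, which acts there, had 1, 0 and 1. The receptor phosphatase gene Ptprd had 1, 1 and 0 counts, the surface glycoprotein gene Thy1 0, 1 and 0, and Arhgap44, a GTPase-activating protein of dendrites, 0, 0 and 34.

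Among the signalling genes, Camk2n1 (chr4:138454314-138460123, plus strand) encodes an inhibitor of the kinase CaMKII. It was the only member with counts in every hippocampal replicate, and held the most counts in CD11c-negative APP and WT hippocampus. In CD11c-positive APP hippocampus Ncam1 held more, at 166 counts against 155. On group sums, Syn1 (log2 ratio -2.98) and Ncam1 (-3.30) were among the members that fell less from cortex there than Camk2n1 (-4.73). In WT cells Syp (-1.86) fell less than Camk2n1 (-1.95). Camk2n1 had 7.40, 27.2 and 26.2 CPM in CD11c-positive APP hippocampus, 95.4, 373, 173 and 161 CPM in CD11c-negative APP hippocampus and 117, 60.7, 128 and 80.2 CPM in WT hippocampus. Its cortical values were 290, 266, 583 and 778 CPM in CD11c-positive APP, 167, 79.0, 350 and 449 CPM in CD11c-negative APP and 254, 686, 246 and 284 CPM in WT cells. The regions overlapped in CD11c-negative APP cells, where the log2 ratio on group sums was 0.01, and did not overlap in the other 2 pairs. Camk2a, which encodes a CaMKII subunit and lies on chromosome 18, had 13.7, 0.332 and 0 CPM in CD11c-positive APP hippocampus, 22.5, 0, 0.505 and 0 CPM in CD11c-negative APP hippocampus and 2.25, 0, 0 and 0 CPM in WT hippocampus. Cortical replicates had 64.2, 135, 175 and 400 CPM in CD11c-positive APP, 12.9, 9.31, 96.1 and 123 CPM in CD11c-negative APP and 39.3, 290, 48.6 and 167 CPM in WT cells. In the first CD11c-negative APP hippocampal replicate it passed 2 of the 4 cortical values. Camk2b, another CaMKII subunit, had 5, 167 and 83 counts in the CD11c-positive APP, CD11c-negative APP and WT hippocampal groups. Arpp21, a phosphoprotein regulated by cyclic AMP, had 45, 0 and 0 counts, Ndrg4 19, 0 and 1, and the calcium sensor gene Vsnl1 0, 0 and 15.

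Celf4, an RNA-binding regulator of splicing on chromosome 18, had 0.653, 0 and 1.35 CPM in CD11c-positive APP hippocampus, 1.86, 0, 2.78 and 0 CPM in CD11c-negative APP hippocampus and 1.40, 0, 0 and 0 CPM in WT hippocampus. In cortex it had 101, 165, 233 and 340 CPM in CD11c-positive APP, 111, 39.4, 151 and 255 CPM in CD11c-negative APP and 53.8, 276, 56.4 and 89.9 CPM in WT cells. All hippocampal values of Celf4 lay below all cortical ones. Rbfox3, the splicing regulator known as NeuN, had 0 counts in all 3 hippocampal groups, the transcription factor gene Sox11 had 0, 0 and 8, and Uchl1, a ubiquitin hydrolase, 1, 0 and 2.

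**Figure D2:**
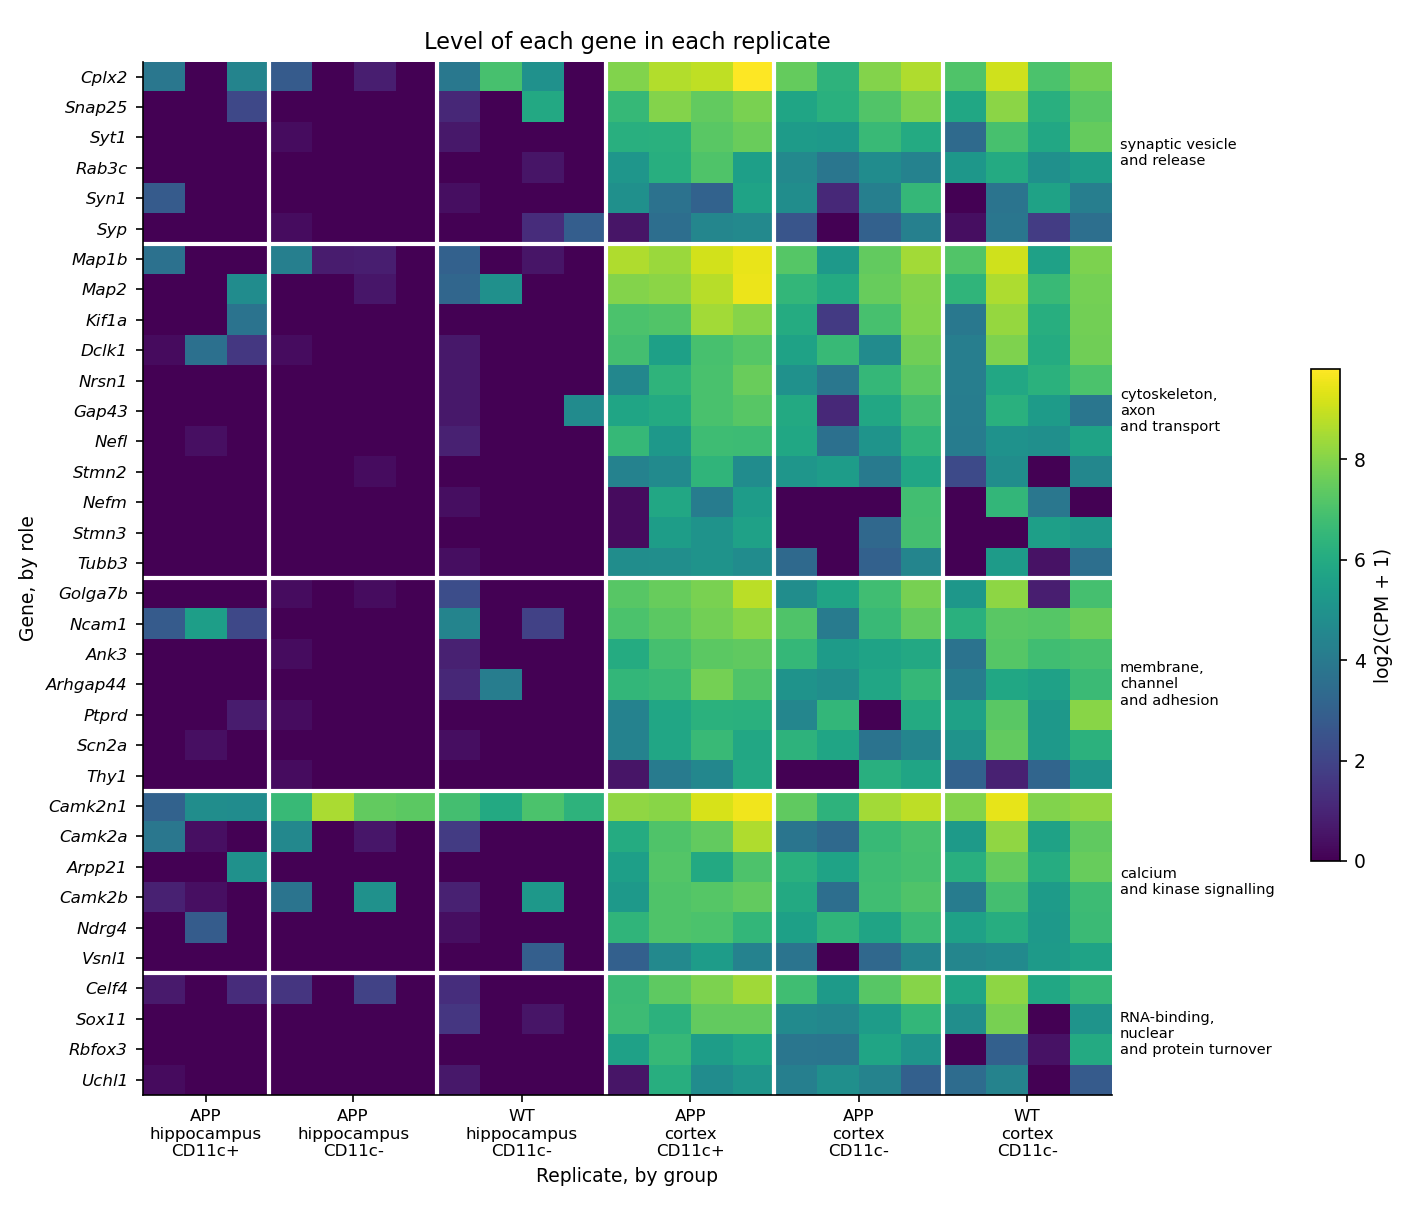
Colour gives the level of each of the 34 genes (rows, by role) as log2(CPM + 1) in each of the 23 replicates (columns, by group, hippocampus left of cortex). Camk2n1 is the only row with counts in every hippocampal replicate, and its CD11c-positive replicates, at 7.40 to 27.2 CPM, are darker than the CD11c-negative APP ones, at 95.4 to 373 CPM.

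Genotype was compared in CD11c-negative cells, a contrast that the choice of the genes did not name. In cortex the edgeR test called 0 of the 34 members and 0% of all genes between APP and WT cells. At an unadjusted p under 0.05 it gave 0 members and 1354 of 14892 genes. DESeq2 called 0 members, beside 245 of 14892 genes. The log2 fold changes of the members ran both ways, 14 above and 20 below 0, with a median of -0.16 (0.00 over all genes). The summed level was 2432 ± 1416 CPM in APP and 3210 ± 2025 CPM in WT cortex (SD, n = 4 each), and the replicates overlapped. In hippocampus 1 member, Ncam1, was called lower in APP cells, beside 1.19% of all genes called lower. At an unadjusted p under 0.05 there were 9 of the 34 members, beside 15.8% of all genes. The log2 fold changes were above 0 for 8 and below 0 for 22 members, with a median of -1.56 (0.01 over all genes), but most members had 0 or few counts in both groups, and only 2 of the 34 passed the gene filter when these 2 groups were fitted alone.

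Ncam1 (chr9:49502136-49798925, minus strand) encodes a neural cell adhesion molecule. It had 0 counts in all 426 CD11c-negative APP hippocampal cells, against 20.5, 0, 2.75 and 0 CPM in the WT hippocampal replicates, from 79 counts in 11 of 438 cells. On group sums it was at least 24.2-fold lower in APP cells (edgeR adjusted p = 0.0445), against a floor of 3 counts over the group. Its counts came from WT replicates 1 and 3 only, and the call came from the fit of all 6 groups. A fit of these 2 groups alone tested 2 of the 34 members, and Ncam1, which did not pass the gene filter, was not among them. No genotype difference is read from the call. A single cell held 62 of the 79 WT counts, the groups overlapped at 0, and without WT replicate 1 the adjusted p was 0.202. Over the alternatives in which it could be tested the adjusted p ran from 0.000985 to 0.202, and it lay between 0.0756 and 0.114 when any 1 APP replicate was left out. The difference between hippocampus and cortex in the genotype effect was not called for any member (0 of 34, beside 1.01% of all genes), with an adjusted p of 0.138 for Ncam1; DESeq2 called 2, Ncam1 and Gap43, beside 790 of 14892 genes. In cortex Ncam1 had 130, 162, 209 and 264 CPM in CD11c-positive APP cells, which overlapped the CD11c-negative ones. It had 135, 16.0, 98.4 and 175 CPM in APP CD11c-negative cells, against 73.6, 156, 148 and 190 CPM in WT cells, and these overlapped.

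The CD11c gate was compared within APP mice. In cortex the summed level was 4641 ± 1755 CPM in CD11c-positive cells, against 2432 ± 1416 CPM in CD11c-negative cells (SD, n = 4 each), and the replicates overlapped, while within each of the 4 animals the CD11c-positive sum was the higher. Log2 fold changes were above 0 for 32 of the 34 members, with a median of 0.87 (0.19 over all genes), but edgeR called 0 of them, beside 1.23% of all genes. At an unadjusted p under 0.05 there were 0 members, beside 1797 of 14892 genes. DESeq2 called 0 members, beside 606 of 14892 genes. By the titles alone, both gates came from the same animals. With the animal as a block in a fit of these 2 groups, Map1b (log2 fold change 1.72, adjusted p = 0.0435) and Map2 (1.52, adjusted p = 0.0170) were called higher in CD11c-positive cells; 271 of 10959 genes were called in that fit, and the median log2 fold change over all genes was 0.50. Adding genes per cell to the fit of all groups turned the log2 fold changes to -0.57 for Map1b and -1.48 for Map2, neither called. In all 4 animals Map1b and Map2 were higher in the CD11c-positive replicate. The other 32 members were not called in that fit.

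The share of cortical cells with counts for at least 5 of the 34 genes was 10.4%, 22.4%, 21.1% and 29.4% in the CD11c-positive replicates and 6.62%, 2.67%, 21.5% and 8.11% in the CD11c-negative APP replicates. The groups overlapped, with CD11c-negative replicate 3 above CD11c-positive replicates 1 and 3. After thinning each cell to 5000 counts the means were 17.3% ± 7.44 in CD11c-positive and 6.57% ± 3.59 in CD11c-negative cells, against 20.8% ± 7.84 and 9.73% ± 8.19 unthinned (SD, n = 4 each). Mitochondrial share averaged 2.08% to 2.90% in the CD11c-positive and 0.93% to 1.47% in the CD11c-negative replicates, and genes per cell at 5000 counts averaged 686 to 992 and 469 to 648. Oligodendrocyte markers summed to 384 to 554 CPM and 133 to 271 CPM, and astrocyte markers to 995 to 2455 CPM and 447 to 1424 CPM. The part of these values in the gate difference was not tested.

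In hippocampus 1 member was called lower in CD11c-positive cells, beside 0.107% of all genes, and 1 higher, beside 0.443% of all genes. Camk2n1 fell in CD11c-positive cells, at 20.3 ± 11.2 CPM (SD, n = 3) with counts in 12 of 362 cells, against 200.4 ± 120 CPM in CD11c-negative cells (SD, n = 4) with counts in 77 of 426 cells. Its log2 fold change was -3.31 ± 0.66 (SE, edgeR adjusted p = 0.0135), and the highest positive replicate lay below the lowest negative one. The adjusted p was 0.0953 without replicate 1-2, 0.0571 without replicate 2-3 and 0.0755 when these 2 groups were fitted alone. In cortex the log2 fold change of Camk2n1 was 0.88 ± 0.54 (adjusted p = 0.588), and the difference between the 2 regions in this effect had an adjusted p of 0.315 with edgeR and 1.1e-05 with DESeq2. Ncam1 rose in CD11c-positive cells, with 6.09, 44.2 and 3.36 CPM, against 0 counts in all CD11c-negative replicates, at least 57.3-fold higher on group sums (adjusted p = 0.0266). A single cell held 127 of its 166 counts. Its adjusted p was 0.164 without replicate 2-3, 0.167 in a fit of these 2 groups, and from 0.0674 to 0.123 without any 1 CD11c-negative replicate. For the difference between regions in the gate effect edgeR called 0 of the 34 members and 0% of all genes, with 8 members and 1116 genes at an unadjusted p under 0.05, and DESeq2 called 3 members, Camk2n1, Ncam1 and Arpp21, beside 248 of 14892 genes.

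The other genes of the same pathways were taken from 5 lists of 86 genes, of which 84 were tested. In the region contrasts, which the choice of the members also used, 0 were called in CD11c-positive APP hippocampus (0.222% of all genes), 21 were lower in CD11c-negative APP hippocampus (2.14% of all genes called lower) and 25 were lower and 1 higher in WT hippocampus (1.4% of all genes called lower). In the same order, the median log2 fold change of the 84 genes was -5.30, -6.24 and -7.47. Over all genes it was -0.15, -0.10 and -0.22. By list, the genes lower in WT hippocampus were 7 of 22 vesicle genes, 5 of 19 axon genes and 7 of 19 channel genes. They were also 5 of 12 RNA-binding genes and nuclear RNAs, and 1 of 12 postsynaptic genes. In the genotype contrasts 0 of the 84 were called in cortex (0% of all genes) and 1 was lower in hippocampus (1.19% of all genes called lower). The latter was Dpysl2, which encodes a tubulin-binding protein of growing axons (3750 CPM in APP and 7303 CPM in WT, log2 fold change -0.96 ± 0.11, edgeR adjusted p = 2.2e-05). Its genotype effect differed between regions (log2 -1.27 ± 0.15, edgeR adjusted p = 0.00022, beside 1.01% of all genes called). In cortex it had 6252 CPM in APP and 5022 CPM in WT cells. Dpysl2 was also the 1 gene higher in WT hippocampus, and it was among those lower in CD11c-negative APP hippocampus. In the gate contrasts 1 was higher in cortex (1.23% of all genes called in either direction) and 2 in hippocampus (0.443% of all genes called higher). Syngr1, a vesicle membrane protein gene, rose in CD11c-positive cells of both regions, with 2117 CPM in positive, against 635 CPM in negative hippocampal cells (log2 fold change 1.74 ± 0.30) and 2180 CPM in positive, against 673 CPM in negative cortical cells (1.70 ± 0.29, edgeR adjusted p = 0.00392 in hippocampus and 0.00128 in cortex). The nuclear RNA Rian was called higher in CD11c-positive hippocampus, at 14.4 CPM, against 0 CPM in CD11c-negative cells. Syngr1 and Dpysl2 occurred in many cells: Dpysl2 in 99.5% of the cells with at least 3 members and 99.0% of the others, and Syngr1 in 59.9% and 42.2%.

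The counts of the 34 genes sat in a minority of cortical cells. In hippocampus 1226 cells held 4796 counts of the genes, and in cortex 1431 cells held 119949. Counts for at least 5 of the genes were found in 4 hippocampal cells, all of 1 library of WT replicate 1, and in 191 cortical cells (13.3%), which held 90.1% of the cortical counts. At least 10 of the genes were found in 102 cortical cells (7.13%), which held 78.2% of those counts. None of the 34 was found in 1002 hippocampal and 590 cortical cells, and 211 hippocampal and 535 cortical cells had only 1 or 2. In CD11c-positive and CD11c-negative APP hippocampus 0 of 362 and 0 of 426 cells had at least 5, which allows shares of up to 0.829% and 0.704%. Such limits cover counting error only. The highest number in a cell was 17 in hippocampus and 33 in cortex.

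**Figure D3:**
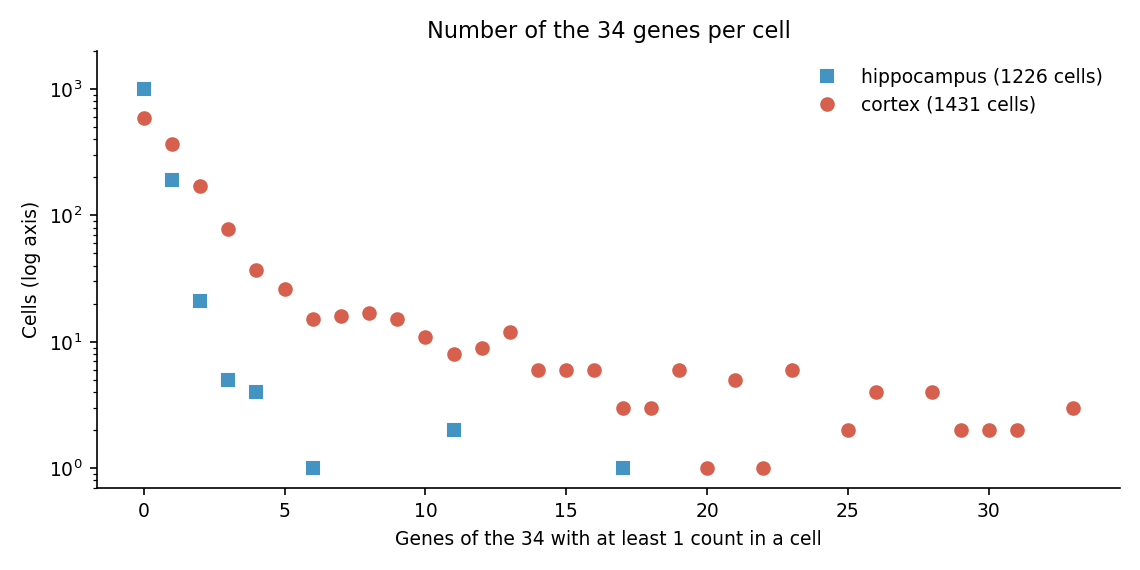
Points give the number of cells (log axis) with each number of the 34 genes detected at 1 count or more, for 1226 hippocampal (squares) and 1431 cortical (circles) cells. Hippocampal cells end at 17 genes, with 4 cells at 5 or more, and the cortical cells form a tail up to 33 genes with 102 cells at 10 or more.

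The 102 cortical cells with at least 10 of the genes also carried microglial transcripts. Each had counts for 5 to 14 of the 14 microglial markers, with a median of 10.5, against 10 in the 590 cortical cells with none of the 34 genes. C1qc, a complement gene, was found in 99.0% of the 102 cells and in 98.1% of the cells with none. These values were not thinned. After thinning to 5000 counts, 1 of the 14 markers had an odds ratio above 1 of being detected in cells with at least 3 members. The median odds ratio was 0.703 and the lowest 0.407. The summed microglial level of the 102 cells was lower, at 6888 CPM, against 23301 CPM in the cells with none. They were also deeper, with a median of 43228 counts against 18210, richer at 5000 counts, with 1240 genes against 535, and higher in mitochondrial share, at 3.54% against 1.12%. Of the 102 cells, 64 were CD11c-positive APP, 22 CD11c-negative APP and 16 WT, and of the 590 cells with none 216, 233 and 141, so the sets differ in group make-up. Within CD11c-positive APP cortex the same medians were 40278 counts against 18194, 1286 genes against 704 and 4.35% against 1.94%. Within CD11c-negative APP cortex they were 35095 against 17001 counts, 1241 against 449 genes and 2.00% against 0.863%, and within WT cortex 61264 against 19103 counts, 1121 against 517 genes and 2.23% against 0.842%. The 34 genes made up a median of 1.39% and at most 3.35% of the counts of such a cell.

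Transcripts of several neuron types and of glia occurred in the same 102 cells. Shank1, a postsynaptic scaffold gene, was found in 74.5% of them and in 0.847% of the cells with none, Nrgn, a calmodulin-binding protein of excitatory neurons, in 43.1% and 0.339%, and Grin2b, an NMDA receptor subunit, in 58.8% and 1.69%. At least 2 excitatory markers were found in 70 of the 102 cells. Gad1, Gad2 or Slc32a1 (genes of GABA synthesis and loading) were found in 29, and both kinds in 23. Matching counts for the cells with none are not given here, and the 102 cells were deeper and not thinned. The excitatory marker Cux2 also averaged 98.3, 70.8 and 173 CPM in CD11c-positive APP, CD11c-negative APP and WT hippocampus. Astrocyte and oligodendrocyte markers were present in the 102 cells as well. The glutamate transporter gene Slc1a2 was found in 94.1% of the 102 cells and 6.95% of those with none, Aldoc in 73.5% and 2.20%, and the myelin gene Mbp in 59.8% and 3.05%. As sums, astrocyte markers reached 4584 CPM in the 102 cells and 250 CPM in the cells with none, and oligodendrocyte markers 1163 CPM and 124 CPM. The interneuron marker Vip was at 0 in both.

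**Figure D4:**
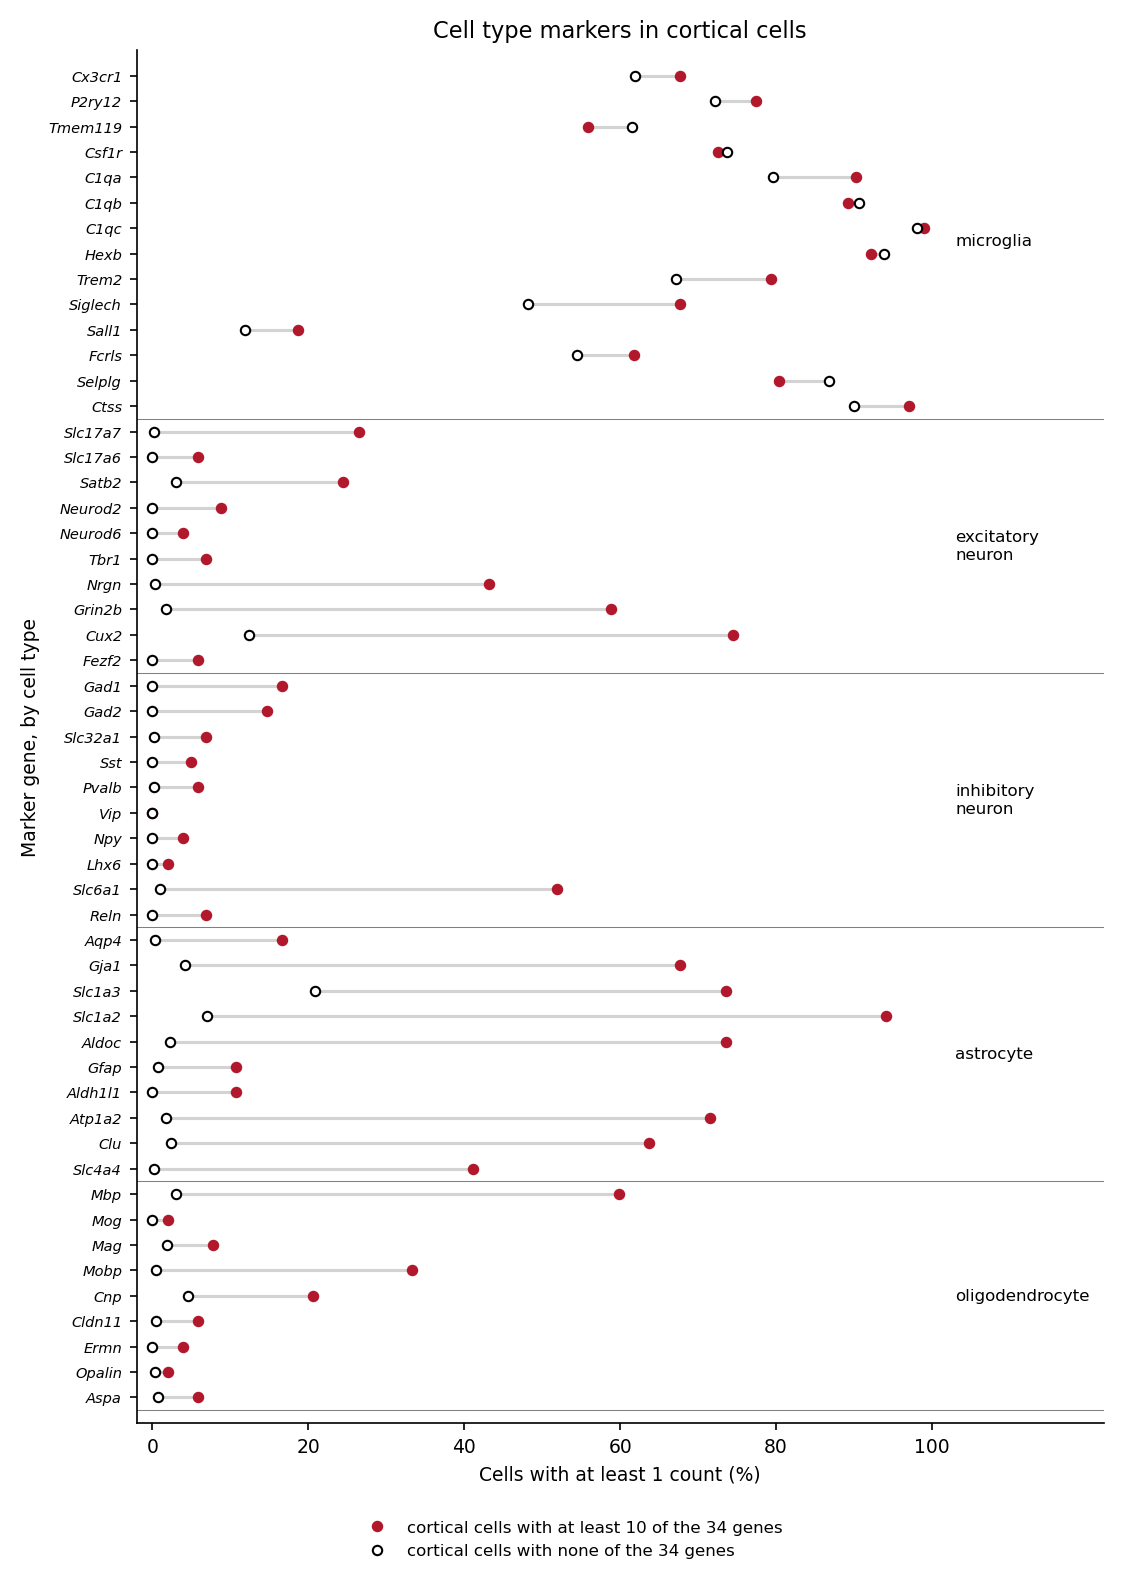
Filled circles give the percentage of the 102 cortical cells with at least 10 of the 34 genes, and open circles that of the 590 cortical cells with none, in which each marker shown had at least 1 count. Microglial markers are found in both sets of cells (C1qc 99.0% and 98.1%), and most neuronal, astrocyte and oligodendrocyte markers lie to the right in the 102 cells (Slc1a2 94.1% and 6.95%).

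The same markers differed between regions with the 34 genes. Astrocyte markers summed to 159 ± 18.8, 325 ± 101 and 342 ± 127 CPM in CD11c-positive APP, CD11c-negative APP and WT hippocampus, with 3, 5 and 3 of the 10 genes at 0. They summed to 1693 ± 710, 936 ± 403 and 1030 ± 647 CPM in the matching cortical groups, with 0, 0 and 1 at 0. Oligodendrocyte markers summed to 68.7 ± 23.2, 62.8 ± 58.0 and 29.3 ± 28.6 CPM in the 3 hippocampal groups, with 4, 5 and 6 of the 10 genes at 0, and to 499 ± 79.5, 214 ± 58.1 and 317 ± 91.8 CPM in the cortical ones, with 0, 2 and 0 at 0. Their part in the region difference of the 34 genes was not tested.

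Which of the genes travel together was measured by phi, the correlation of detection over 2657 cells after centring within each library. Phi was above 0 for all 561 pairs of the 34 genes, with a median of 0.30 and a range of 0.11 to 0.47. Pairs were found together in a median of 4.80 times as many cells as their separate frequencies within each library give, and 5.57 times after thinning to 5000 counts. As yardsticks, the 91 pairs of microglial markers had a median phi of 0.04 and the 476 pairs of a member with a microglial marker 0.00. The microglial markers were detected far more often than the members, with 10 of 14 in the median cortical cell with no member. Phi depends on such frequencies, so the yardsticks are not matched to the members. The cells share library and depth, so all these values are descriptions. Pairs within a role (112 pairs) had a median phi of 0.304 and pairs across roles (449 pairs) 0.300, a difference that was not tested.

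The 6 pairs with the highest phi among the 393 found together in at least 20 cells were as follows. Ank3 and Kif1a shared 62 cells where 13.1 would follow from their frequencies (phi 0.47). Rab3c and Gap43 shared 33 cells against 4.15 (0.46), and Kif1a and Golga7b 69 against 17.1 (0.46). Nrsn1 and Golga7b shared 53 against 11 (0.45), Ndrg4 and Rab3c 34 against 4.27 (0.45), and Kif1a and Map2 90 against 25.7 (0.45). Of these pairs Kif1a and Map2 have the same role, and Kif1a occurs in 3 of the 6. Within groups the median phi over all pairs was 0.34 in CD11c-positive APP cortex, 0.31 in CD11c-negative APP cortex and 0.26 in WT cortex.

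Gap43 and Kif1a were the members most tied to the others, each with a median phi of 0.37 over its 33 partners. Of the 129 cortical cells with Kif1a counts 3.88% had no other member, and the median such cell had 11 others. Camk2n1 had the lowest median phi, 0.21, on all counts. After thinning to 5000 counts its median was 0.20, and those of Syp (0.16), Thy1 (0.17), Tubb3 (0.17) and Rbfox3 (0.18) were lower. Of its 373 cortical cells 22.8% had no other member, and so had 111 of its 129 hippocampal cells. Among cells without any other member it was found in 9.97% in hippocampus and 12.6% in cortex, and among the 176 cells with at least 5 others in 84.1%.

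**Figure D5:**
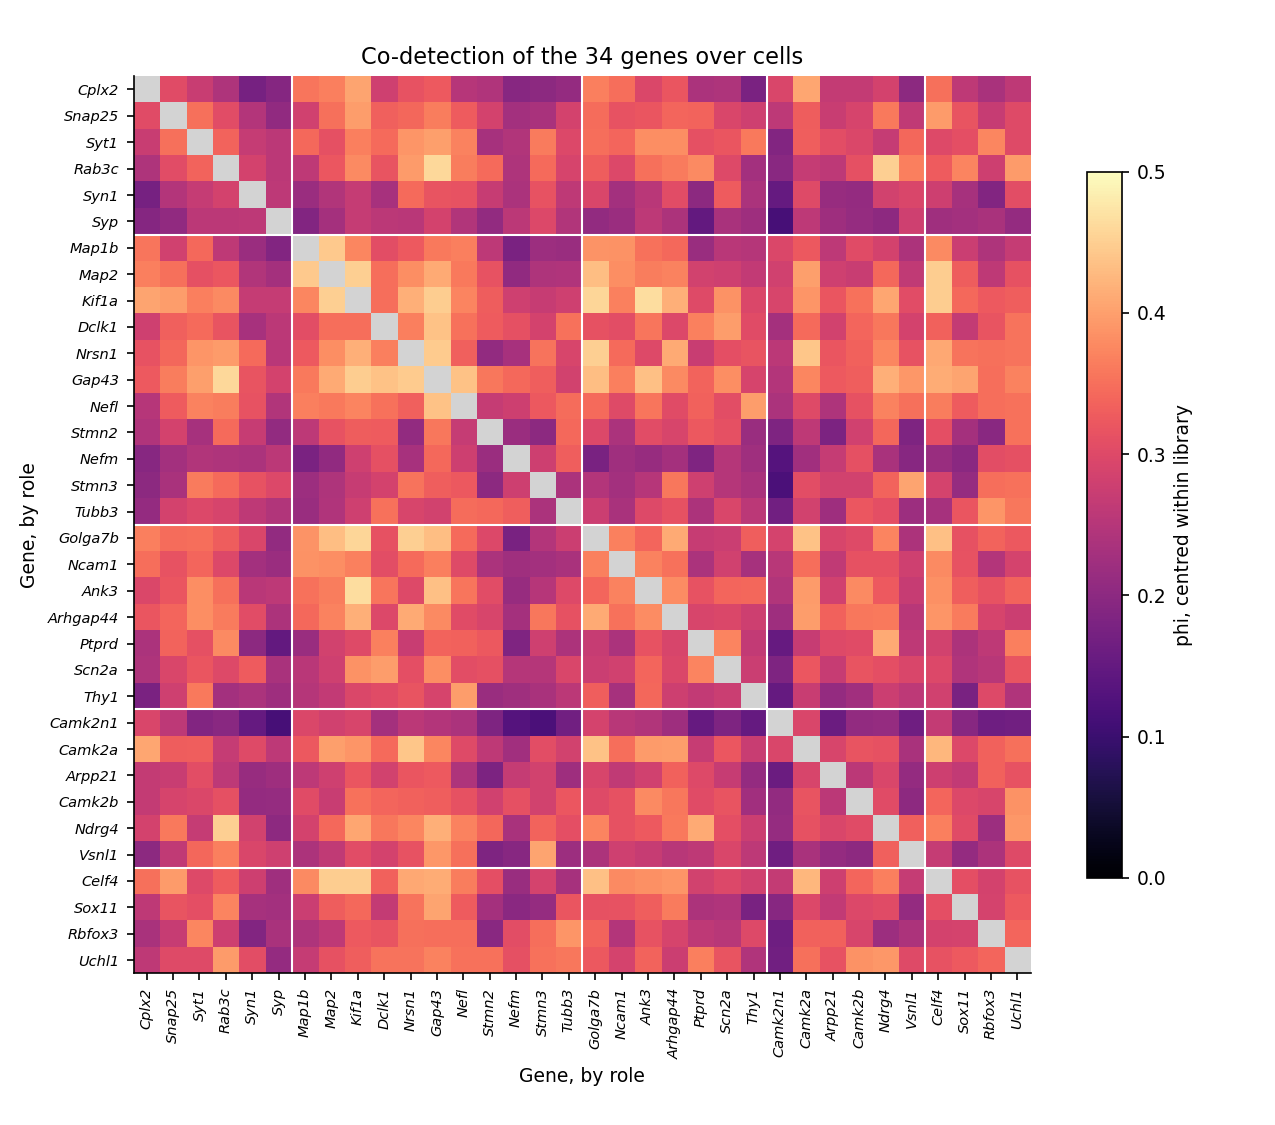
Colour gives phi, the correlation of detection over cells centred within each library, for every pair of the 34 genes ordered by role, with white lines between roles and the diagonal in grey. Rows of Kif1a and Gap43 are bright (median 0.37 each), the row of Camk2n1 is dark (median 0.21).

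Outside the 34, the genes whose detection was most like theirs were ranked by the odds ratio, pooled over libraries, of being detected in cells with at least 3 members (207 of the 2584 cells thinned to 5000 counts) among 5247 genes found in at least 2% of cells. Among the 15 highest were Dlgap1, Mmd2, Ntrk2, Ntm, Msi1, Snrpn, Shank1, Adcy1, Prnp, Kif5c, Fbxl16, Ddah1, Olfm1 and Ndrg2. The odds ratios of the 15 ran from 92.3 to 44.4, where the median gene had 1.54. Dlgap1, a postsynaptic scaffold gene, was found in 22.2% of the cells with at least 3 members and 0.252% of the others. Prnp, which encodes the prion protein, was found in 43.5% and 1.26%. Ndrg2 and the receptor gene Ntrk2, which astrocytes also express, were found in 34.3% and 0.547% and in 24.6% and 0.210%. Of the 14 microglial markers 1 had an odds ratio above 1, with a median of 0.703.

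The median span of the members was 77732 bases and the median exonic length 5819 bases, against 17929 and 3876 bases for all genes tested. The span of 9 of the 34 lay below the median of all genes tested, and the members lay on 16 chromosomes.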

How the data were processed

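Single sorted microglia from 36 libraries were analysed. The deposited values are whole-number counts per gene and cell. Per the submitters' processing notes the tools were UMI-tools 0.5.3, HISAT2 2.1.0 and featureCounts 1.6.0, with GRCm38/mm10. The merging of molecular identifiers and the strand setting of counting are not given in the sources used here. Entries of 20 or more made up 35.9% of nonzero entries and held 88.8% of all counts.

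A cell needed 200 genes or more and a mitochondrial share of 20% or less (2657 of 2660 passed), and doublets were not called. Counts were summed per animal, region and gate into 23 replicates of 1037425 to 4484427 counts, and p-values measure the spread between them. The test was edgeR 4.0.16's quasi-likelihood test in R 4.3.3 on all 6 groups (TMM scaling, low-count filter, 14892 genes, Benjamini-Hochberg adjusted p under 0.05), with limma 3.58.1 loaded and DESeq2 1.42.0 as an alternative. CPM of single genes are TMM-adjusted and summed CPM are not. Cells were thinned to 5000 counts where stated, which left out 73. Python 3.11.15 was used for cells and figures. On simulated data for genotype in cortex (14892 genes), the test recovered 20 of 100 genes changed by 2 on the log2 scale. It recovered 2 of 100 changed by 1, with 0 unchanged genes called. The changed genes were drawn only from those with higher mean levels. These numbers therefore do not cover members at low levels, such as Syp (mean 5.31 CPM).

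A few list genes are not reported here. The members and gene lists were chosen with earlier results of these data known. The 10 members given by replicate are those with the highest mean level. Animals pair the regions of CD11c-negative cells and the gates in cortex by title. Deviations of same-numbered samples correlated at -0.061 to 0.072 over 3480 genes.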

Additional observations from a re-analysis of the deposited data

Results flagged for a closer look

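Over 55 combinations of a group and a value, 13 had a replicate far from the other 3, all in 3 groups. Chance flags about 1 in 20 groups, a rate that does not hold where the other 3 replicates are at 0, since any count then stands apart. In WT cortex, replicate 2 had 686 CPM of Camk2n1, against 246 to 284 CPM in the others, and 276 CPM of Celf4, against 53.8 to 89.9 CPM.

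In WT hippocampus, replicate 1 had 2.76% of cells with at least 5 of the 34 genes, against 0% in the others. That replicate also had 7.30 CPM of Map1b (0 to 0.458 CPM in the others), 1.40 CPM of Celf4 (0), 3.93 CPM of Golga7b (0), 20.5 CPM of Ncam1 (0 to 2.75) and 2.25 CPM of Camk2a (0). Its 4 cells with at least 5 of the genes were in 1 library. WT hippocampal replicate 3 had 59.5 CPM of Snap25, against 0 to 1.12 CPM.

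In CD11c-negative APP hippocampus, replicate 1 had 6.10 CPM of Cplx2 (0 to 0.758 CPM in the others), 17.8 CPM of Map1b (0 to 0.758) and 22.5 CPM of Camk2a (0 to 0.505), and replicate 3 had 0.505 CPM of Map2, against 0.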

How the results depend on the processing

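Counts of called members are given beside the value of the report, out of 34 members unless stated, with the genes called of all genes tested in brackets. No result changed direction past the threshold. For genotype in hippocampus (1), DESeq2 called 7 (1066 of 14892), no gene filter 6 (247 of 26348), the number of cells with a count 2 of 14 (669 of 4175) and RLE scaling 0 (196 of 14892). The compared groups alone and libraries whose tag matches the title called 0 of only 2 members tested. The replicate block also called 0 of 2, but for genotype it joins different animals by number only. For the gate in hippocampus (2), DESeq2 called 5 (529 of 14892), no filter 4 (106 of 26348), the number of cells 1 of 14 (975 of 4175), the genes-per-cell covariate 1 (32 of 14892) and the compared groups alone 0 of 3 (58 of 10336). For the gate in cortex (0), the replicate block called 2 (271 of 10959). For region in WT cells (17), DESeq2 called 27 (1601 of 14892), the number of cells 9 of 14 (112 of 4175), the covariate 6 (17 of 14892), and the compared groups alone and the replicate block 0 of 23 (0 of 8027). For region in CD11c-negative APP cells (25), the number of cells gave 12 of 14 (515 of 4175), the compared groups alone 20 of 24 (234 of 9099) and the replicate block 0 of 24 (0 of 9099). For region in CD11c-positive APP cells (11), DESeq2 called 31 (652 of 14892), no filter 19 (78 of 26348) and the compared groups alone 23 (452 of 12156). For genotype by region (0), DESeq2 called 2 (790 of 14892), no filter 2 (146 of 26348) and the number of cells 1 of 14 (388 of 4175). For gate by region (0), these called 3 (248 of 14892), 1 (2 of 26348) and 1 of 14 (10 of 4175). Median phi (0.301) was 0.371 at 5 counts and 0.258 after thinning. The cause was not tested.

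Leaving out 1 replicate at a time gave 0 to 4 calls for genotype in hippocampus (169 to 259 of all genes) and 0 to 2 for the gate in hippocampus (30 to 59). For region it gave 12 to 18 in WT (96 to 324), 19 to 23 in CD11c-negative APP (183 to 315) and 3 to 10 in CD11c-positive APP cells (7 to 30). It gave 0 for genotype in cortex (0), the gate in cortex (115 to 145), genotype by region (118 to 174) and gate by region (0). The share of cells with at least 5 members ranged over 18% to 24.3% in CD11c-positive APP cortex, 5.80% to 12.1% in CD11c-negative APP cortex, 6.47% to 10.7% in WT cortex and 0% to 0.920% in WT hippocampus. Summed CPM ranged over 73.7 to 108 in CD11c-positive APP, 194 to 279 in CD11c-negative APP and 169 to 207 in WT hippocampus, and over 3960 to 5281, 1804 to 2897 and 2372 to 3857 in the matching cortical groups.

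No paired analysis was possible because the titles share fewer than 2 replicate numbers for the gate in hippocampus, region in CD11c-positive APP cells and gate by region.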

Other observations

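In CD11c-negative APP cortical replicate 1, 76.3% of the cells of 1 library and 29.3% of those of the other had a count for any of the 34 genes, at 2426 and 720 CPM. In WT cortical replicate 2, 91.1% of cells had one.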
